A study of Arabidopsis thaliana with 10 samples.

Results

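Transcripts of 9 arabinogalactan peptide genes, AGP16 and its relatives AGP12, AGP13, AGP14, AGP15, AGP20, AGP21, AGP22 and AGP41, were followed in shoots of Arabidopsis thaliana. They were found by locus code and make up 9 of the 32824 genes in the table. Levels are in FPKM, which divide the fragments of a gene by its length and by the size of the library. The length used here appears to be that of the transcript less about a fragment length, since low values then became whole fragments. This raises the values of short genes most. The OE group holds 5 libraries of a transgenic line in which the viral 35S promoter drives the oilseed rape trehalose-6-phosphate synthase gene BnaC02.TPS8. The WT group holds 5 libraries of Col-0, the accession the line was compared with. All plants grew for 10 days on diluted Murashige and Skoog agar with 1% sucrose and without a further treatment. According to the series description, nitrogen was sufficient, and the comparison served to find pathways that respond to TPS8.

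The 35S promoter is generally used for expression throughout the plant rather than in a single cell type. The sample titles name a single line, OE-11, while the series description names O2. No row of the table measures the transgene itself. Its Arabidopsis relative TPS8 stood at 41.9 ± 10.3 FPKM in OE and 83.7 ± 12.5 FPKM in WT (SD, n = 5). The labels do not say whether the replicates were grown separately, so p-values measure only the spread between these samples, which may be technical. Depth, inferred from the smallest steps between weak values, was 1.96e+07 to 2.48e+07 fragments per library. RNA of the plastid genome made up 0.442% to 4.28% of the summed FPKM, and the 3 libraries with the most were WT replicates 4 and 2 and OE replicate 4. The 4 mesophyll markers summed to 63549 to 73759 FPKM in OE and 63127 to 73970 FPKM in WT. The 6 root markers together summed to 0.454 to 1.59 FPKM in OE and 0.489 to 1.38 FPKM in WT. None of the 17 tested markers of mesophyll, epidermis, guard cells, vascular tissue and shoot meristem passed the test between the genotypes.

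Arabinogalactan proteins are cell surface proteoglycans of plants whose prolines are hydroxylated and then carry large, branched sugar chains of arabinose and galactose. In the peptides of the family, the smallest class, a secretion signal is followed by a very short core and a second signal that is exchanged for a glycosylphosphatidylinositol (GPI) anchor, which holds the product in the plasma membrane. AGP21 has been linked to root hair fate in Arabidopsis. For AGP16 itself little is known.

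The coding sequences show what the 9 genes share and where they differ. The core and its surroundings are printed for each gene, 5′ to 3′, as annotated by RefSeq on assembly TAIR10.1. The longest annotated coding sequence of each gene is used, and AGP16 has a second, of 174 nt, which was not compared. Capitals mark the longest run of codon pairs in which a codon for alanine, serine or threonine is followed by a codon for proline, and the windows reach from 15 bases before that run to 36 bases after it.
AGP16: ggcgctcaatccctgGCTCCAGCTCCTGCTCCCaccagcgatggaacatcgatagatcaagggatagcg
AGP20: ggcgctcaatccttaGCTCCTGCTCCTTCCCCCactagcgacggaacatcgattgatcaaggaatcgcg
AGP22: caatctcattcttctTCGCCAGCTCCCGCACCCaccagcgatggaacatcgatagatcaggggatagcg
AGP41: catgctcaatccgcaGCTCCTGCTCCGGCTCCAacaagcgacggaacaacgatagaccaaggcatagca
AGP15: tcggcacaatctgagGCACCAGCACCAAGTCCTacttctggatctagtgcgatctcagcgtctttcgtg
AGP12: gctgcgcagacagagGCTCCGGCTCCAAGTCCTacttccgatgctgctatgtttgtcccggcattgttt
AGP21: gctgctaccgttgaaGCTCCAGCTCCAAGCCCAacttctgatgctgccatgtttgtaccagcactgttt
AGP13: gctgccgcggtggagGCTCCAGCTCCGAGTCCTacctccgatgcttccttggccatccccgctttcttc
AGP14: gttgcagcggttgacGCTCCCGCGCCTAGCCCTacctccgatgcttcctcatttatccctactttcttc

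In all 9 genes this run is 3 pairs, or 6 codons, long, and the next codon is one for threonine. It begins at codon 26 in AGP15 and at codons 29 to 31 in the others. What follows it divides the genes. In the 36 bases after the run, AGP16 shares 35 with AGP22, 31 with AGP20 and 30 with AGP41, but 14 with each of AGP12, AGP13, AGP14 and AGP21 and 11 with AGP15. AGP12 and AGP21 share 31 of these bases, and AGP13 and AGP14 share 29. The number of codons after the run also separates them, with 38 in AGP16, 39 in AGP20, 27 in AGP22 and AGP41, 30 in AGP15, and 24 in each of AGP12, AGP13, AGP14 and AGP21. AGP16, AGP20, AGP22 and AGP41 have 2 exons, whereas the other 5 genes have 1.

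The 3 whole coding sequences that matter most for the comparison of genotypes are those of AGP16, of AGP20, its closest relative, and of AGP41, with the same run in capitals.
AGP16: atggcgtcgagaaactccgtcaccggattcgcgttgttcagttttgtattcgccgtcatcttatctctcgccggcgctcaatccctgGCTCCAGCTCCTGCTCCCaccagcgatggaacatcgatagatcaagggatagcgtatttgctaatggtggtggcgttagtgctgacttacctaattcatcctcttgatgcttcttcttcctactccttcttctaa
AGP20: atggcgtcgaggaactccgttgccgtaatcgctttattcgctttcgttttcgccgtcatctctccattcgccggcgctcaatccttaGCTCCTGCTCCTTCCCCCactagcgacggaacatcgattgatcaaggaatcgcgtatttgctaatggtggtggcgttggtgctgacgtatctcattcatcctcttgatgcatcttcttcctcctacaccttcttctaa
AGP41: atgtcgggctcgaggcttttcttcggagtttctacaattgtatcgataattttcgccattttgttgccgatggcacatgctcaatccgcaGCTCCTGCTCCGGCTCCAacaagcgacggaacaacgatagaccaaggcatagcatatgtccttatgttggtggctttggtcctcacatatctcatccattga

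Of the bases of the shorter coding sequence, AGP16 shares 86.5% with AGP20, 77.6% with AGP22, 72.4% with AGP41 and 72.0% with AGP15 in a global alignment. By this measure AGP15 is about as close to AGP16 as AGP41 is. In the longest annotated coding sequences the products have 58 to 74 codons, where the median protein-coding gene of the annotation has 347. Of 27562 protein-coding genes, 1030 (3.74%) have a coding sequence no longer than the longest of the 9. No member shared a stretch of 31 bases, in the same orientation, with a transcript of any other gene, so that fragments of AGP16 and AGP20 could be told apart.

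Levels differed widely among the members. AGP15 was the most abundant, with 485 ± 56.0 FPKM in OE and 452 ± 71.4 FPKM in WT, which placed it at rank 255 of 17713 genes with a mean of at least 1 FPKM. AGP16 ranked 448, AGP12 692 and AGP21 1346, and each of these 4 genes exceeded at least 92.4% of the tested genes. AGP20 followed at rank 3950 and AGP41 at rank 10481. AGP14 at 12852 and AGP22 at 17420 were weak, and AGP13, with a mean of 0.586 FPKM in OE and 0.585 FPKM in WT, fell below the minimum of 1 FPKM and was not tested. The order of the means was the same in both genotypes, but the spacing was not. In WT the libraries of AGP15 and AGP16 overlapped and those of AGP16 and AGP12 did not. In OE those of AGP15 and AGP16 were apart and those of AGP16 and AGP12 overlapped. AGP41 overlapped with AGP14, and AGP22 with AGP13, in each genotype, and AGP14 overlapped with AGP22 in WT.

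**Figure D1:**
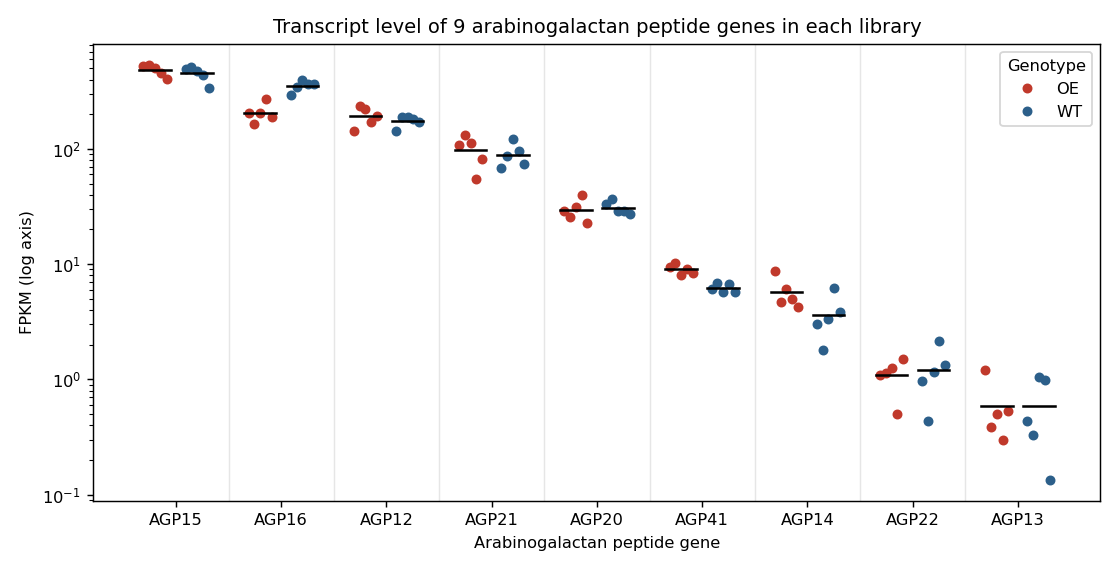
FPKM of each member (log axis) in the 5 OE and 5 WT libraries, 1 point per library with the mean as a bar. The OE and WT points are apart for AGP16, at 164 to 269 against 296 to 394 FPKM, and for AGP41, at 8.06 to 10.3 against 5.67 to 6.81 FPKM, and they overlap for the other 7 genes.

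AGP16 (AT2G46330) was lower in OE, and it was this difference that led to the choice of the family, so its values are given as a description without a test. Its FPKM were 205, 164, 205, 269 and 188 in OE replicates 1 to 5, against 296, 342, 394, 367 and 366 in WT replicates 1 to 5. Every OE library lay below every WT library, and the closest were OE replicate 4 and WT replicate 1. The means were 206 ± 39.0 FPKM in OE and 353 ± 37.1 FPKM in WT, a ratio of 0.584, and the log2 difference was -0.79 (SE 0.12, on the log2(FPKM + 1) scale). Among the 1265 tested genes with a mean of at least 100 FPKM, 7 had a lower log2 difference. Without the 3 libraries of most plastid RNA the difference was -0.88. In whole shoots, fewer cells that express a gene and less RNA per cell cannot be told apart.

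AGP20 (AT3G61640), the closest relative of AGP16 by sequence, did not show this separation. It stood at 28.7, 25.8, 31.2, 40.1 and 22.7 FPKM in OE and at 33.3, 36.5, 28.8, 28.9 and 27.5 FPKM in WT. The OE libraries held both the highest and the lowest value, and the groups overlapped. The means were 29.7 ± 6.60 FPKM in OE and 30.99 ± 3.77 FPKM in WT, with a log2 difference of -0.08 (SE 0.14). As FPKM are per length, the 2 genes can be set side by side. AGP16 transcripts were 6.35 to 8.28 times as abundant as those of AGP20 in OE libraries and 8.89 to 13.7 times as abundant in WT libraries. These ranges do not overlap, but the ratios and shares of AGP16 here and below restate the difference that led to the choice of the family.

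AGP41 (AT5G24105), another gene of the group that AGP16 forms by the bases after the run, was higher in OE. It stood at 9.51, 10.3, 8.06, 8.98 and 8.40 FPKM in OE replicates 1 to 5 and at 6.10, 6.81, 5.67, 6.67 and 5.77 FPKM in WT replicates 1 to 5. Every OE library exceeded every WT library. The means were 9.04 ± 0.879 FPKM in OE and 6.21 ± 0.517 FPKM in WT, a ratio of 1.46 and a log2 difference of 0.48 (SE 0.08). Because this gene has a single transcript in the annotation, the fragments behind its values could be inferred: 102, 114, 94, 88 and 92 in OE against 62, 61, 62, 60 and 63 in WT. AGP16 transcripts were 16.0 to 30.0 times as abundant as AGP41 transcripts in OE libraries and 48.5 to 69.5 times in WT libraries. AGP22 (AT5G53250), the fourth gene of this group, was close to the detection limit, with 12, 13, 15, 5 and 17 fragments in OE and 10, 4, 13, 20 and 15 in WT. Its levels of 0.497 to 1.51 FPKM in OE lay within the range of 0.435 to 2.17 FPKM in WT.

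**Figure D2:**
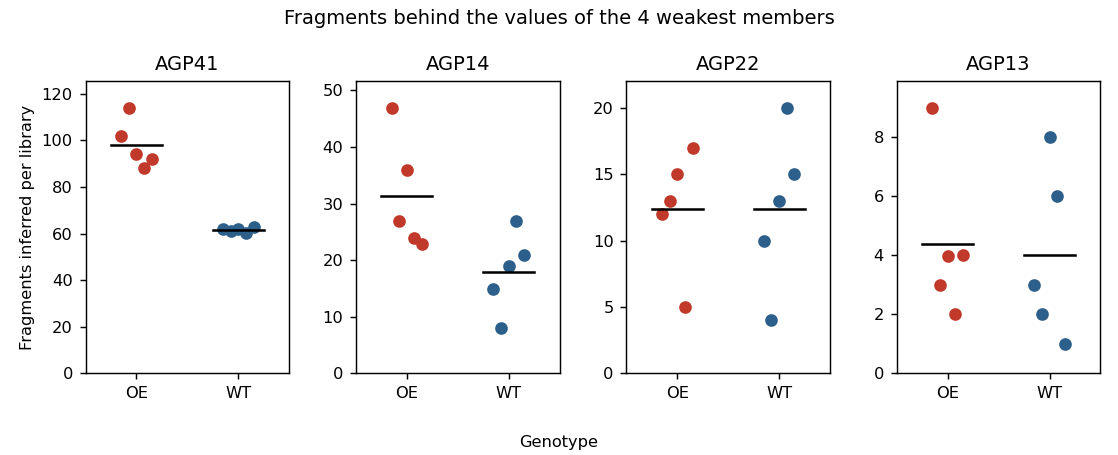
Fragments inferred per library for the 4 weakest members in OE (left of each panel) and WT, 1 point per library with the mean as a bar, each axis starting at 0. AGP41 rests on 88 to 114 fragments in OE and 60 to 63 in WT, whereas AGP13 rests on 2 to 9 in OE and 1 to 8 in WT.

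AGP15 (AT5G11740) stands apart from both sequence groups in the 36 bases after the run. It had 529, 537, 502, 455 and 403 FPKM in OE and 495, 517, 471, 438 and 335 FPKM in WT. The groups overlapped, with 2 OE libraries above all WT libraries and a log2 difference of 0.11 (SE 0.12). In both genotypes replicate 2 was the highest and replicate 5 the lowest. AGP16 did not follow this order, and the level of AGP16 per AGP15 was 0.305 to 0.591 in OE and 0.597 to 1.09 in WT.

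Among the 4 genes with 24 codons after the run, AGP12 (AT3G13520) was the most abundant. It stood at 142, 234, 221, 171 and 192 FPKM in OE and at 143, 189, 189, 183 and 170 FPKM in WT, with a log2 difference of 0.12 (SE 0.13). OE held 3 libraries above all WT libraries and 1 below them. Replicate 1 was the lowest in each genotype.

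AGP21 (AT1G55330), the gene linked to root hair fate, stood at 109, 132, 113, 55.2 and 81.6 FPKM in OE and at 68.4, 87.4, 122, 95.8 and 73.6 FPKM in WT, a log2 difference of 0.10 (SE 0.23). OE held the highest and the lowest library. The values of AGP21 are uncertain, since 364 of the 427 bases of the gene overlap the antisense gene AT1G55335, an uncharacterized protein gene, and the labels do not say that the kit marks strand. If strand is not marked, fragments from the overlap cannot be assigned to either gene. AT1G55335 was listed at 149 to 254 FPKM in OE and 138 to 204 FPKM in WT and did not pass the test (log2 difference 0.22; limma adjusted p = 0.524). AGP16 has such an overlap too, of 228 bases with AT2G46320, a mitochondrial carrier gene on the other strand. That gene was weak, with 6.52 to 8.91 FPKM in OE and 6.63 to 8.57 FPKM in WT (limma adjusted p = 0.724). How fragments of the overlap were shared out is not given in the sources used here.

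AGP14 (AT5G56540) was listed at 8.64, 4.70, 6.08, 5.00 and 4.26 FPKM in OE and at 3.00, 1.81, 3.36, 6.19 and 3.87 FPKM in WT. These rest on 47, 27, 36, 24 and 23 fragments in OE and on 15, 8, 19, 27 and 21 fragments in WT. All OE libraries exceeded 4 of the 5 WT libraries, and 1 OE library lay above WT replicate 4. Its log2 difference of 0.57 was larger than that of AGP41, but its SE of 0.24 was also larger. AGP13 (AT4G26320) had 9, 3, 4, 2 and 4 fragments in OE and 3, 2, 8, 6 and 1 in WT, too few to compare levels.

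Counted over the family, AGP16 and AGP41 were the 2 of 8 tested members past a limma adjusted p of 0.05, 1 in each direction. Of all 17713 tested genes, 2.89% passed, 2.37% higher and 0.525% lower in OE. The same 2 members had no overlap between the groups, where 5.83% of tested genes had none, 4.41% with OE higher and 1.42% with OE lower. Since the family was chosen on this contrast, these counts are a description and nothing is read from them. The median size of the log2 difference was 0.11 over the 8 members and 0.11 over all tested genes. With the 3 libraries of most plastid RNA left out, 0 members and 0 genes in all passed limma, with 1845 genes at an unadjusted p under 0.05, and AGP16 and AGP41 differed by -0.88 and 0.55. That comparison has 4 OE libraries and 3 WT libraries.

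Summed over the 9 members, AG peptide transcripts amounted to 902 to 1110 FPKM in OE and 984 to 1216 FPKM in WT, with means of 1028 ± 81.6 FPKM in OE and 1111 ± 95.8 FPKM in WT. The sums overlapped. Within them, AGP16 made up 14.8% to 26.8% in OE and 28.3% to 37.2% in WT. These shares do not overlap, which restates the difference that led to the choice of the family. Without AGP16 the sum was 821 ± 97.5 FPKM in OE and 758 ± 87.4 FPKM in WT, and again the groups overlapped. AGP15 took 47.1 ± 2.66% of the sum in OE and 40.6 ± 5.14% in WT.

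**Figure D3:**
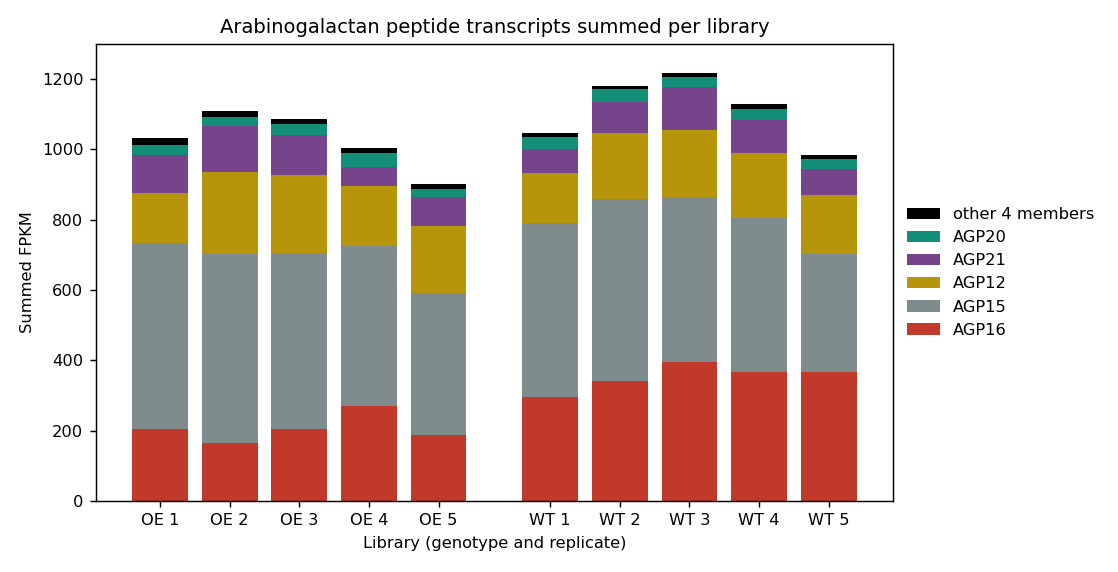
Summed FPKM of the 9 members in each library (OE replicates on the left, WT replicates on the right), stacked by gene. AGP16, at the base of each bar, reaches 164 to 269 FPKM in OE and 296 to 394 FPKM in WT, while the whole bars overlap at 902 to 1110 and 984 to 1216 FPKM.

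Spread between libraries of the same genotype enters the test between the genotypes and whether the groups overlap. It is therefore not independent of a choice made on that contrast, and it is given as a description. For AGP16 the pooled within-genotype SD of log2(FPKM + 1) was 0.21, and 85.4% of the 500 tested genes nearest in level varied less. Values of this share were 81.2% to 94.6% in 7 of the 8 tested members, AGP41 being the exception. AGP41 had an SD of 0.11, and 12.2% of its 500 neighbours in level varied less. Neighbours in level were also taken among genes with transcripts of at most 1034 nt, the longest of the members. Against these, the share was 81.0% for AGP16, 80.6% for AGP15, 83.4% for AGP12, 91.6% for AGP21, 70.6% for AGP20, 67.8% for AGP14, 44.4% for AGP22 and 1.2% for AGP41. AGP41 thus varied less than most short transcripts of its level in these libraries, with 60 to 63 inferred fragments in all 5 WT libraries. Counting error alone would spread counts of this size more widely, so this closeness is not read as a trait of the gene.

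Genes whose variation was most like that of AGP16 were sought after each genotype's mean was subtracted, over 10 libraries and 12549 other genes with a mean of at least 5 FPKM. Pearson's r is given as a description, since the highest of so many values is high in any data of this size. The first was AT5G09310, a gamma-secretase subunit gene, with r of 0.93. It was followed by the RNA-binding protein genes AT1G14340 (0.91) and AT1G76460 (0.90), the cyclophilin-like gene AT5G35100 (0.91), BPC6 (0.90), AT3G11450 (0.90), MBF1A (0.90) and AT5G01960 (0.90). The log2 differences of these 8 genes between OE and WT ran only from -0.24 to 0.13. No member of the family was among them: AGP20 had r of 0.49 and place 1830, while AGP12, AGP15, AGP21 and AGP41 had -0.17, -0.30, -0.37 and -0.32. The list rests on single libraries, for without OE replicate 4 none of the 8 was among the first 8, and without WT replicate 3 only 1 was.

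The other arabinogalactan proteins and the enzymes that build them were compared by lists from general knowledge. Of 77 listed genes 58 were tested, and limma passed 0 of them, beside 2.89% of all tested genes, while 4 had an unadjusted p under 0.05, beside 15.1% of all tested genes. The groups did not overlap in 2 of the 58, beside 5.83% of all tested genes. These were AGP24, lower in OE, and HPGT2, a galactosyltransferase gene of the sugar chains, higher in OE at 10.5 ± 0.418 FPKM, against 9.05 ± 1.00 FPKM in WT (limma adjusted p = 0.255). HPGT2 was named after its values were seen. Classical and lysine-rich arabinogalactan proteins, the larger relatives with the same type of sugar chains, numbered 12 tested genes with a median log2 difference of -0.01. AGP9, the most abundant of them, stood at 92.1 ± 12.2 FPKM in OE and 88.5 ± 5.43 FPKM in WT (limma adjusted p = 0.856). AGP31, which has a PAC domain, stood at 102 ± 23.8 FPKM in OE and 114 ± 24.6 FPKM in WT (limma adjusted p = 0.732). All 14 tested fasciclin-like arabinogalactan proteins, which carry adhesion domains, had log2 differences below 0, from -0.41 to -0.03, with a median of -0.08, beside 0.00 over all tested genes. That direction leaned most on OE replicate 5, for without it only 5 of the 14 lay below 0 and the median was 0.03. Some other settings also made it less uniform. With sample weights 9 lay below 0 (median -0.05), and without WT replicate 3 it was 10 (median -0.07). FLA9, the most abundant, stood at 218 ± 57.3 FPKM in OE and 231 ± 59.6 FPKM in WT (limma adjusted p = 0.891). Of the 3 listed AG peptides that are not among the 9, AGP24 and AGP40 were tested. AGP24, the more abundant, stood at 3.19 ± 0.490 FPKM in OE and 4.31 ± 0.492 FPKM in WT (limma adjusted p = 0.114). AGP40, named because only these genes were tested, stood at 3.73 ± 1.09 FPKM in OE and 2.96 ± 1.72 FPKM in WT (limma adjusted p = 0.633).

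**Figure D4:**
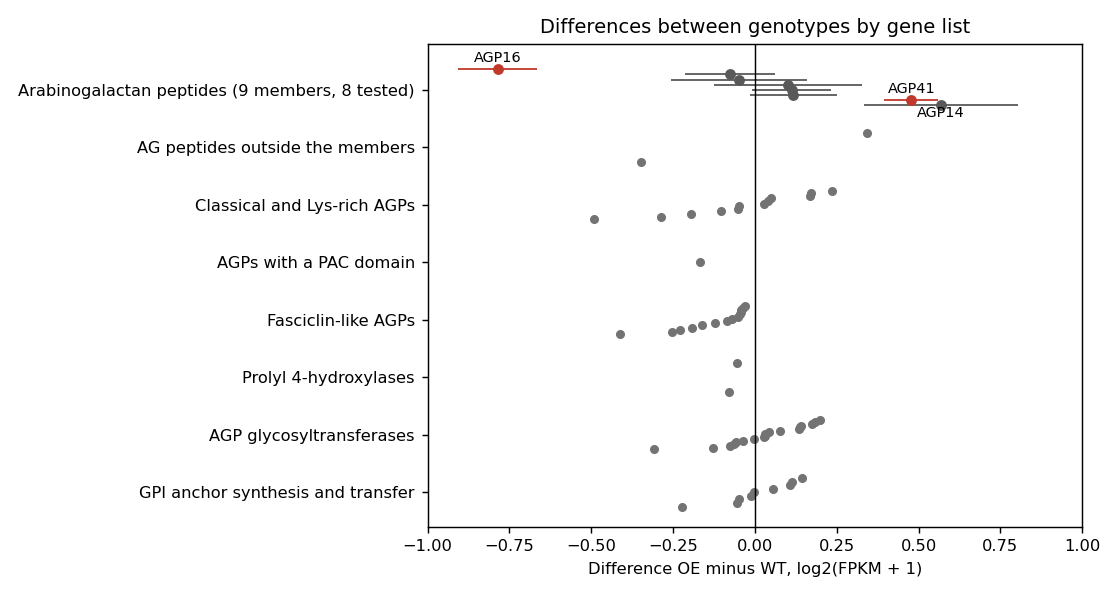
Log2 difference of OE minus WT for the 8 tested members (top row, with SE bars; red where the groups do not overlap) and for each tested gene of 7 other lists (grey), 1 point per gene. AGP16 at -0.79 and AGP41 at 0.48 lie on opposite sides of 0, and the other lists lie between -0.49 and 0.34.

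Of the listed genes for making the sugar chains and the anchor, none passed either. Prolyl 4-hydroxylases turn proline into the hydroxyproline that carries the sugars, and 2 of the 3 listed here were tested. The more abundant, P4H5, stood at 19.9 ± 3.10 FPKM in OE and 20.7 ± 3.41 FPKM in WT (limma adjusted p = 0.886). Among 18 tested glycosyltransferases and methyltransferases of the sugar chains the log2 differences ran from -0.31 to 0.20. AGM1, which methylates glucuronic acid of the chains and was the most abundant, stood at 21.3 ± 1.72 FPKM in OE and 22.5 ± 1.17 FPKM in WT (limma adjusted p = 0.664). The 9 tested genes of GPI anchor synthesis and transfer ran from -0.22 to 0.14, and PIGS, a subunit of the enzyme that attaches the anchor, stood at 19.3 ± 0.990 FPKM in OE and 19.4 ± 1.96 FPKM in WT (limma adjusted p = 0.995). A gene that misses the threshold is not shown to be equal in OE and WT. On simulated data for this comparison, limma found 86.5% of genes with a 2-fold change but only 63% of genes with a 1.5-fold change. At the smallest change simulated, where the median estimated log2 difference was 0.32, it found only 1% of the changed genes. Each of these simulations changed 200 of 17713 genes, whereas 512 genes passed in the data. The unadjusted p needed to pass depends on how many genes pass, so these shares need not hold for the data. The log2 differences of the 58 listed genes ran from -0.49 to 0.34. That none passed is not read as a lack of small changes.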

How the data were processed

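RNA-seq of 10 shoot libraries (5 OE, 5 WT, grouped by their titles) was used. The authors deposited 1 table of FPKM for 32824 genes; the submitters' processing notes name, in no order, kallisto 043.1, sleuth, R 3.5.1, FastQC and Trimmomatic 0.36, and the build is not given in the sources used here. The members and gene lists were chosen with earlier results of these data known.

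Genes with a mean of at least 1 FPKM (17713) were fitted by limma 3.58.1 in R 4.3.3 on log2(FPKM + 1) with genotype only, a mean-variance trend and Benjamini-Hochberg adjustment, two-sided, at an adjusted p of 0.05. No p-value of a member is given, as AGP16 was chosen on this contrast. The fit was tested on simulated data for 17713 genes with independent noise. Log2 differences understate changes of weak genes.

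Of the table's genes 32539, all 9 members included, matched the RefSeq annotation of TAIR10.1 by locus tag. Coding sequences were read from that assembly by its own annotation, and its coordinates are not given because the build of the values is unknown. Fragments were inferred from single-transcript genes of at least 600 nt, whose low values are whole multiples of 1 fragment: with an effective fragment length of 254 to 284 nt fitted per library, 96.7% to 97.6% of values that round to 20 fragments or fewer lay within 0.1 of a whole number. For the members this was done where the annotation has 1 transcript, and counts within 0.15 of a whole number are printed as whole. AGP16 has 2 transcripts and gives none. Depth sets counting error only. Intervals were not computed.

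The text names all 9 members, the passing or else the most abundant gene of each list, the 8 genes most like AGP16 and TPS8. AGP40, HPGT2 and the 2 antisense neighbours fall outside this rule and were chosen after the data were seen. Alternatives were other pseudocounts, filters and scalings, a fit without organelle genes, without the trend or with sample weights, the replicate block and each library left out. Analyses used Python 3.11.15, pandas 2.3.3 and biopython 1.88, and figures matplotlib 3.10.9.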

Additional observations from a re-analysis of the deposited data

Results flagged for a closer look

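The level of AGP13 in OE replicate 1, 1.21 FPKM, lay far from the other OE libraries, which ran from 0.300 to 0.535 FPKM; its gap to the nearest was 0.742 of the range of the group, above the critical value of 0.71 for 5 samples. It corresponds to 9 fragments, beside 2 to 4 in the other OE libraries. Of the 18 groups examined (9 genes in 2 genotypes) this was the only 1, and chance flags about 1 in 20 such groups.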

How the results depend on the processing

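The differences of AGP16 and AGP41 kept their direction in all 21 other settings, from -0.89 to -0.71 and from 0.43 to 0.55 on the log2 scale, which describes values that chose the family. Without the 3 libraries of most plastid RNA, a setting chosen after seeing the data, 0 members and 0 genes in all passed. That setting has 4 OE and 3 WT libraries. AGP20, AGP21 and AGP22 ran from -0.19 to 0.01, from -0.02 to 0.33 and from -0.19 to 0.09, so their directions are unsettled. Of all tested genes 512 passed; the count was 781 with the replicate block and 207 to 536 with each library left out. It moved by over 1.5 times with the block and without OE replicate 2 (207), OE replicate 4 (273), WT replicate 2 (291) and WT replicate 5 (277). No gene of the other lists passed in any of these settings. With each library left out, AGP16 ran from -0.89 to -0.71. Replicate numbers do not pair the samples by the labels, and same-numbered OE and WT libraries correlated by -0.09 to 0.20 in their deviations from the group means; 2 of 5 OE libraries matched their own number best. Of the 8 genes most like AGP16, 1 was among the first 8 by Spearman correlation, 4 after median-ratio scaling, 0 without the libraries of most plastid RNA and 0 to 6 with each library left out; the cause was not tested. Depth limits AGP13 and AGP22, which had at most 9 and 20 fragments per library.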
